A study of Macaca mulatta with 12 samples.

Results

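The 12 arrays were divided by whether the animal's implant held estrogen. The 6 arrays with estrogen comprised 3 from monkeys given estrogen and 3 from monkeys given estrogen plus progesterone. The 6 arrays without estrogen comprised 3 from placebo monkeys and 3 from monkeys given progesterone. All 12 arrays of the series were used, and progesterone was kept as a second factor, so that each finding could be read at both progesterone levels: estrogen against placebo without progesterone, and estrogen plus progesterone against progesterone alone with it. The members were chosen from the treatment labels and not from measured values.

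Each array held RNA from a block of tissue containing the dorsal raphe nucleus of 1 female rhesus monkey, Macaca mulatta, hybridised to an Affymetrix rhesus chip, so replicates are separate animals. Steroid crystals in Silastic capsules, or placebo, had been under the skin for 1 month. The code OVX in the placebo titles was taken to mean ovariectomized. It is absent from the other titles, and whether all animals had been ovariectomized, their ages and the steroid doses are not given in the sources used here. The progesterone titles bear the code EP while the descriptions bear P, and these arrays were taken as progesterone alone. A tissue block holds neurons, glia and vessels together, so fewer cells of a type and less RNA per cell cannot be told apart.

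Estrogen acts mainly through the nuclear receptors ESR1 and ESR2, which bind DNA and change transcription, and through membrane signalling. The dorsal raphe is the main source of serotonin to the forebrain, and in primates its serotonin neurons carry ESR2 and, after estrogen priming, the progesterone receptor PGR. In other tissues estrogen induces PGR, which is why a response to progesterone is usually studied on an estrogen background.

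The labelled region was checked first. TPH2, FEV and SLC18A2, which mark serotonin neurons, averaged log2 intensities of 7.31, 9.47 and 10.12 over the 12 arrays, while LMX1B was dim at 3.75 and SLC6A4 had no named probe set. On the second principal component of all probe sets tested (17.2% of the variance) the 3 progesterone arrays lay between -54.5 and -14.1 and the other 9 between 0.50 and 20.4. On the first (23.5%), the first array of the estrogen, estrogen plus progesterone and placebo groups lay at -44.9, -44.0 and -51.6, apart from the other 9, between -1.64 and 29.0. The 3′ minus 5′ log2 signal of the control transcript EF1A, a sign of RNA quality or labelling, averaged 0.29 ± 0.33 with estrogen and -0.16 ± 0.20 without it (SD, n = 6 each). That difference had an exact two-sided permutation p of 0.005 within progesterone levels, the smallest the design allows, and 0.035 after Benjamini-Hochberg adjustment over 7 array measures. EF1A did not overlap at either level, but the progesterone arrays read -0.37 to -0.31 and the other 9 -0.08 to 0.74. The first estrogen array (0.74) and the first estrogen plus progesterone array (0.65), both apart on the first component, were highest. The same measure for GAPDH (p = 0.07) and actin (p = 0.76, both by the same exact permutation test) did not pass.

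Across 6 arrays with estrogen and 6 without, no probe set passed. Of 26383 probe sets tested with limma, 0 (0%) reached an adjusted p of 0.05 for the main effect of estrogen, and the lowest adjusted p was 0.116. At an unadjusted p under 0.05 there were 2014 (7.63%), of which 1005 were higher with estrogen and 1009 lower. The difference averaged over both levels had a 95% confidence interval that extended a median of 0.34 log2 units to each side. Within a level, 0 (0%) passed for estrogen against placebo and 22 (0.0834%) for estrogen plus progesterone against progesterone. The test of whether the estrogen difference itself differed between levels, the interaction, passed for 0 (0%).

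The 12 genes with the lowest main-effect p in each direction were examined at both levels. Higher with estrogen were EXOC3L1, ELFN2, SIRT6, CNTNAP2, LPCAT4, AP5B1, CPLX2, PPM1K, MIB2, GPN2, HSPBAP1 and SLC6A17, by 0.50 to 1.60 on the log2 scale (adjusted p by limma 0.162 to 0.454). Lower were WASHC4, TM7SF3, PPM1A, EXTL2, ITPRID2, ZNF146, TMEM106B, MRPS5, USP16, SLC2A5, ANKRD11 and IGFBP7, with differences of -1.60 to -0.63 (0.145 to 0.363). Of the 12 higher genes 6 had non-overlapping arrays at both levels, as had 3 of the 12 lower genes. In 7 of the 12 higher and all 12 lower genes the 3 progesterone arrays lay beyond the other 9, which was so for 1200 of all probe sets (4.55%). Since these genes were picked by a p to which those arrays contribute, the counts are a description.

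Among the 100 probe sets with the lowest main-effect p, 94 did not overlap at the level with progesterone, in the direction of the main effect. At the level without it 40 did not. Of all probe sets, 17.0% and 7.54% did not overlap at those levels, in either direction. Their median absolute difference was 0.97 with progesterone and 0.32 without it, and in 66 the progesterone arrays lay beyond the other 9. Of all probe sets, 4.55% had the progesterone arrays beyond the other 9. Both levels held for 34 of the 100, against 0.724% of all. Since the 100 were picked by a p built from both level differences, these counts are a description.

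**Figure D1:**
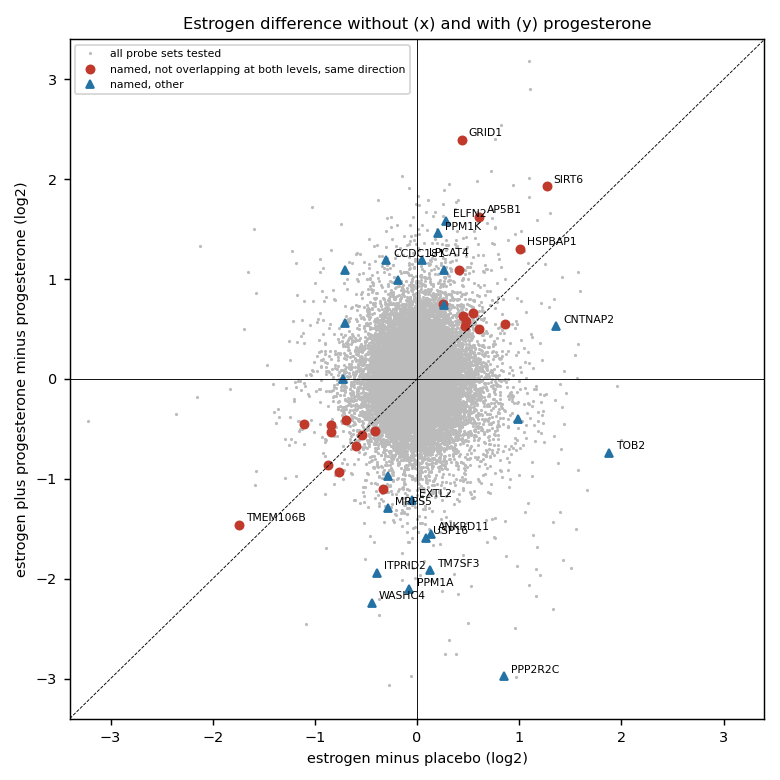
Each point is a probe set, placed by its log2 difference for estrogen minus placebo (horizontal) and for estrogen plus progesterone minus progesterone (vertical). The dashed line marks equal differences. Red circles are the named genes whose arrays did not overlap at either level in the same direction, such as SIRT6 (1.27 and 1.93) and TMEM106B (-1.75 and -1.46), and blue triangles the other named genes, such as PPM1A (-0.07 and -2.11).

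The levels, which share no array, gave differences that were little related across probe sets. Pearson's r was 0.014 over 26383 probe sets, and 51.0% had the same sign. These are descriptions, since probe sets are not independent replicates. Of the 100 probe sets with the lowest p for estrogen against placebo, 55 had the same sign with progesterone present. In the direction seen against placebo their median difference was 0.71 there and 0.04 with progesterone. Of the 100 with the lowest p for estrogen plus progesterone against progesterone, 53 had the same sign without progesterone, with a median of 1.22 at their own level and 0.02 at the other.

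A small share of probe sets held at both levels. Non-overlapping arrays were counted for 1989 probe sets between estrogen and placebo (7.54%) and for 4485 between estrogen plus progesterone and progesterone (17.0%). Both held in the same direction for 191 (0.724%), of which 109 were higher with estrogen (0.413%) and 82 lower (0.311%). That was 9.60% of the 1989 and 4.26% of the 4485. Of all probe sets, 8.4% were non-overlapping and higher with progesterone present and 8.6% non-overlapping and lower, so the share of 9.60% lies near that background. In 153 (0.580%) both levels were non-overlapping but in opposite directions. All 6 arrays with estrogen lay beyond all 6 without it in 79 (0.299%). The 191 are therefore given as a description of single genes, and covered 60 named genes higher and 43 lower. The count depends on the scaling: 56 of the 191 held under median alignment and 111 with no further normalization, and 34 held under all 3 scalings.

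Several of the genes named here had dim groups. Of 23 control probe sets for transcripts not added to the samples, the highest averaged a log2 intensity of 6.41 before normalization, the next 5.13 and the median one 3.60. Of 46 genes named by their p or by non-overlap, 16 had a group mean below 6.41, so the sizes and order of their differences rest on readings not shown to be above background.

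SIRT6, a nuclear deacetylase that acts on chromatin, came first among the genes higher at both levels, ordered by the smaller of their level differences. Its log2 intensity was 7.68, 7.45 and 7.54 in the estrogen arrays, against 5.92, 5.62 and 7.33 in the placebo arrays. It was 7.04, 7.15 and 7.95 in the estrogen plus progesterone arrays, against 5.68, 5.51 and 5.17 in the progesterone arrays. The groups did not overlap at either level, but the third placebo array lay near the estrogen arrays and above 2 of the estrogen plus progesterone arrays. The other 5 arrays without estrogen read below the highest control. The main effect was 1.60 ± 0.27 (SE, adjusted p by limma 0.199). Without the third placebo array it was 1.86 and passed (adjusted p by limma 0.0216). The other SIRT6 probe set, which was brighter, differed by 0.26, with 0.61 without progesterone and -0.10 with it.

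HSPBAP1, which encodes a partner of the small heat shock protein HSP27, read 8.14, 7.83 and 7.78 in the estrogen arrays, against 6.20, 6.97 and 7.56 in the placebo arrays. With progesterone it read 7.90, 7.76 and 8.14 in the estrogen plus progesterone arrays, against 7.18, 6.89 and 5.81 in the progesterone arrays. All 6 arrays with estrogen were above all 6 without it, and the difference was 1.16 ± 0.26 (adjusted p by limma 0.452). Its other probe set differed by -0.17.

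AP5B1, a subunit of the AP-5 adaptor complex of late endosomes, read 7.51, 7.35 and 7.32 in the estrogen arrays and 6.13, 7.14 and 7.08 in the placebo arrays. In the estrogen plus progesterone arrays it read 7.40, 7.64 and 7.50, against 6.40, 5.21 and 6.07 in the progesterone arrays. No array without estrogen reached one with it. SLC6A17, a transporter that loads neutral amino acids into synaptic vesicles, differed by 0.54 without progesterone and 0.66 with it, and its 6 arrays with estrogen (9.65 to 9.94) also lay above the 6 without (8.86 to 9.49).

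LRRTM1, a postsynaptic adhesion protein that binds neurexins, was the only one of the 10 genes of this kind besides STK40 with a larger difference without progesterone. Its estrogen arrays read 7.05, 7.35 and 7.28, against 6.99, 5.99 and 6.12 in the placebo arrays. The estrogen plus progesterone arrays read 7.16, 6.83 and 6.99, against 6.25, 6.67 and 6.41 in the progesterone arrays. STK40, a pseudokinase, MAP1S, a microtubule-binding protein, FABP3, a fatty acid carrier, and PABPN1, which binds the poly(A) tail in the nucleus, had main effects of 0.50 to 0.55.

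GRID1, a glutamate receptor of the delta family that forms synaptic bridges, differed unequally. It read 7.22, 6.995 and 6.92 in the estrogen arrays, against 6.79, 6.60 and 6.44 in the placebo arrays. It read 6.92, 7.26 and 6.97 in the estrogen plus progesterone arrays, against 6.46, 3.63 and 3.88 in the progesterone arrays. The progesterone arrays other than the first were far below every other array and below the highest control, so the size is uncertain, and its other probe set differed by -0.18. The main effect was 1.42 (adjusted p by limma 0.561). Without the first progesterone array it was 1.87 and passed (adjusted p by limma 0.000543), which rests on those dim readings.

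**Figure D2:**
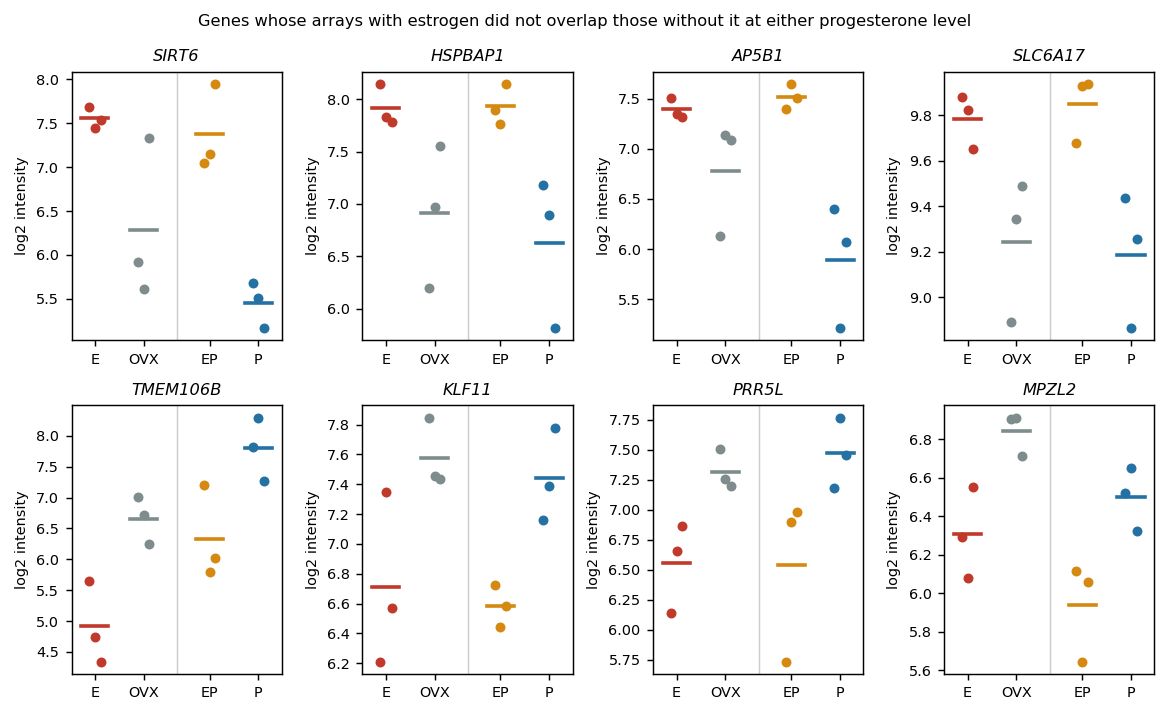
Log2 intensity on each of 12 arrays for 8 genes whose arrays did not overlap at either progesterone level, in the order estrogen (E), placebo (OVX), estrogen plus progesterone (EP) and progesterone (P). Points are single monkeys and bars the means of 3; SIRT6, HSPBAP1, AP5B1 and SLC6A17 were higher with estrogen and TMEM106B, KLF11, PRR5L and MPZL2 lower.

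TMEM106B, a lysosomal membrane protein, came first in the same order among the genes lower at both levels. Its estrogen arrays read 5.66, 4.74 and 4.34, against 7.01, 6.72 and 6.25 in the placebo arrays. Its estrogen plus progesterone arrays read 7.20, 5.79 and 6.03, against 7.82, 8.30 and 7.28 in the progesterone arrays. The groups were apart at each level, although the first estrogen plus progesterone array exceeded all 3 placebo arrays. All 3 estrogen arrays, the other estrogen plus progesterone arrays and the third placebo array read below the highest control. The main effect was -1.60 ± 0.30 (adjusted p by limma 0.279), and it passed when arrays were weighted by their quality (adjusted p by limma 0.0467), as did EXOC3L1 and WASHC4. The 2 other TMEM106B probe sets differed by 0.09 and -0.10.

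KLF11, a transcription factor of the Krüppel-like family, was lower by nearly the same amount at both levels, with differences of -0.87 without progesterone and -0.86 with it. It read 6.21, 7.35 and 6.57 in the estrogen arrays, against 7.85, 7.45 and 7.43 in the placebo arrays. It read 6.72, 6.44 and 6.59 in the estrogen plus progesterone arrays, against 7.16, 7.39 and 7.77 in the progesterone arrays. The second estrogen array lay close to the placebo arrays. Its other probe sets differed by 0.08 and -0.23.

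PRR5L, a binding partner of mTOR complex 2, differed by -0.77 without progesterone and -0.94 with it, and its other probe set by -0.43. The 6 arrays with estrogen (5.73 to 6.98) all lay below the 6 without (7.18 to 7.77). SLC2A5, a fructose transporter known from microglia, read 6.53, 6.78 and 6.76 in the estrogen arrays, against 7.41, 7.33 and 7.13 in the placebo arrays. It read 6.67, 7.32 and 6.82 in the estrogen plus progesterone arrays, against 7.67, 7.64 and 7.51 in the progesterone arrays. MPZL2, an adhesion molecule of epithelia, differed by -0.55. FBLN7 and TNFAIP6, of the extracellular matrix, CEP85, of the centrosome, ARHGAP18 and CCDC34 had main effects of -0.78 to -0.47.

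The interaction did not pass for any of these 20 genes, with adjusted p by limma of 0.751 to 0.998. Since its 95% interval is wide, extending a median of 0.69 to each side, this does not show equal effects at the levels. Among 7 other probe sets for the 10 higher genes 4 had the same direction, and 7 of 10 for the lower genes. The EF1A signal ratio was also apart at both levels, with the progesterone arrays lowest, and its part in these differences was not tested. Under all 3 scalings, SIRT6, HSPBAP1, AP5B1, FABP3 and GRID1 held at both levels among the higher genes, and TMEM106B, KLF11, PRR5L, MPZL2 and FBLN7 among the lower ones.

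With progesterone present, 22 probe sets passed between estrogen plus progesterone and progesterone, 4 of them higher and 18 lower, among them 11 named genes. In every one the progesterone arrays lay beyond the other 9. In 13 the difference between estrogen and placebo had the same sign, and in 4 those groups did not overlap in that direction. In the direction seen with progesterone, the median difference was 1.59 there and 0.05 between estrogen and placebo. The unadjusted interaction p was under 0.05 for all 22, but these were selected on 1 of its terms, and none passed after adjustment.

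Higher in estrogen plus progesterone than in progesterone were ELFN2, LPCAT4 and EXOC3L1. ELFN2, a postsynaptic adhesion protein, read 7.96, 7.87 and 7.78 in the estrogen plus progesterone arrays and 6.58, 6.01 and 6.26 in the progesterone arrays, and rose by 1.58 (adjusted p by limma 0.0182). Its estrogen arrays read 7.63, 7.29 and 8.02, against 7.13, 7.43 and 7.52 in the placebo arrays, which overlapped. The progesterone arrays averaged 6.285, below the highest control, so the size of the ELFN2 difference is uncertain. The other ELFN2 probe set, which was brighter, differed by 0.18 without progesterone and 0.56 with it. LPCAT4, an enzyme that remodels phospholipids, was 1.19 higher in estrogen plus progesterone than in progesterone (adjusted p by limma 0.0218). Its estrogen and placebo arrays differed by 0.05 and overlapped.

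EXOC3L1, a relative of the exocyst subunit EXOC3, was the exception among the 3. It read 6.83, 6.97 and 7.10 in the estrogen plus progesterone arrays, against 6.07, 5.93 and 5.64 in the progesterone arrays (adjusted p by limma 0.0462). It read 6.995, 7.25 and 7.15 in the estrogen arrays, against 6.84, 6.48 and 6.84 in the placebo arrays. Both levels were free of overlap, but without progesterone the difference of 0.41 did not pass (adjusted p by limma 0.9997).

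Lower in estrogen plus progesterone were TM7SF3, PPM1A, WASHC4, USP16 and EXTL2. PPM1A, a phosphatase that dephosphorylates SMADs and AMPK, read 6.67, 6.89 and 7.19 in the estrogen plus progesterone arrays, against 8.99, 8.95 and 9.13 in the progesterone arrays (adjusted p by limma 0.0113). It read 6.38, 7.22 and 6.69 in the estrogen arrays, against 6.43, 7.13 and 6.96 in the placebo arrays. The 3 progesterone arrays stood alone above the rest. Its 3 other probe sets had main effects of -0.09, 0.11 and -0.15.

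WASHC4, a subunit of the WASH complex that builds actin on endosomes, averaged 5.86 in the estrogen plus progesterone arrays, below the highest control, and 8.10 in the progesterone arrays. It was lower in estrogen plus progesterone than in progesterone (adjusted p by limma 0.0113), by an amount that the dim side leaves uncertain. Its estrogen and placebo arrays overlapped. Its 3 other probe sets had main effects of -0.76, -0.20 and -0.49. TM7SF3, a multi-span membrane protein, was lower by 1.92 in estrogen plus progesterone than in progesterone (adjusted p by limma 0.0103). Without progesterone it differed by 0.12. The other TM7SF3 probe set, which was brighter, differed by -0.46 without progesterone and -0.51 with it. USP16, a deubiquitinase of histone H2A, was lower by 1.59 in estrogen plus progesterone than in progesterone (adjusted p by limma 0.0182). EXTL2, a glycosyltransferase of heparan sulfate synthesis, was lower by 1.22 (adjusted p by limma 0.0182). Without progesterone they differed by 0.09 and -0.05. With progesterone the other USP16 probe sets differed by -1.49, -0.38 and 0.18, and the other EXTL2 one, which was brighter, by -0.04.

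The count of 22 moved with single arrays. Of the progesterone arrays, leaving out the second gave 0, leaving out the third gave 7 and leaving out the first gave 36. It was 3 without the first or the second estrogen plus progesterone array and 13 without the third, and 42 and 14 without the first and the second placebo array, which enter through the shared spread. When each of 9305 genes was read on its brightest probe set, 2 of these were among the 22.

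**Figure D3:**
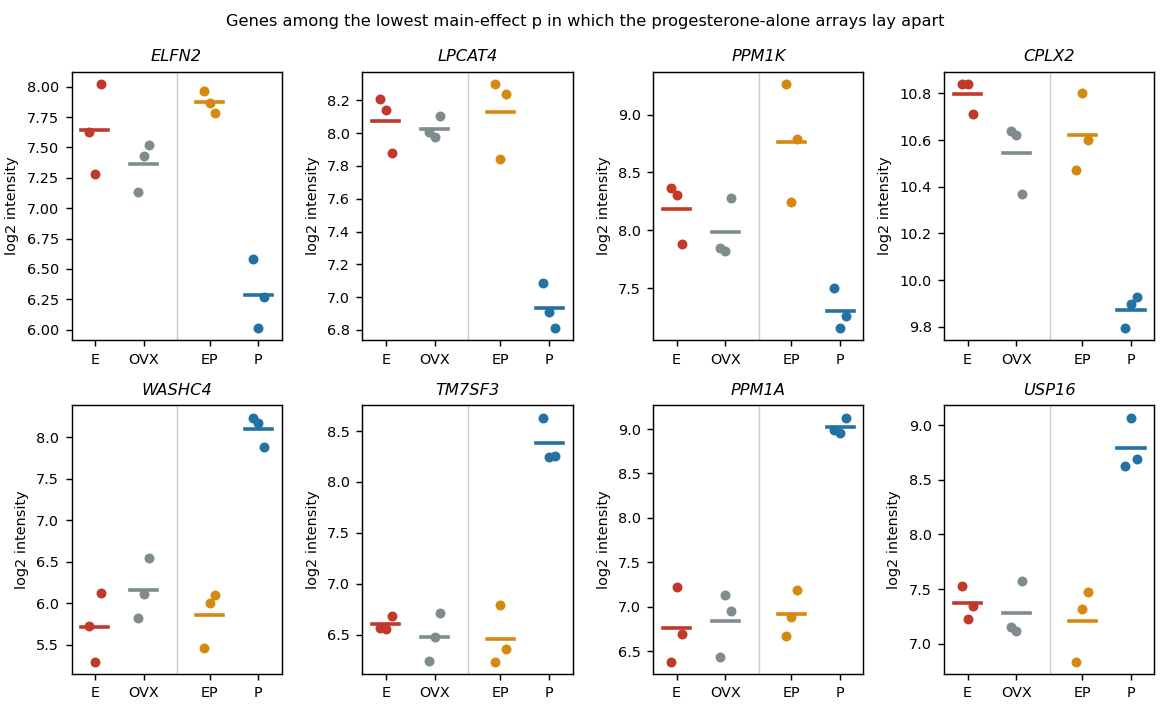
Log2 intensity on each of 12 arrays for 8 genes of the lowest main-effect p in which the progesterone arrays (P) lay beyond the other 9, drawn as estrogen (E), placebo (OVX), estrogen plus progesterone (EP) and progesterone (P). Points are single monkeys and bars the means of 3; in PPM1A the progesterone arrays read 8.95 to 9.13 and the other 9 read 6.38 to 7.22.

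Without progesterone nothing passed, with 699 probe sets at an unadjusted p under 0.05 and a lowest adjusted p by limma of 0.9997. The genes of the lowest p were CNTNAP2, TOB2 and TMEM171 in the higher direction and PATE4, TMEM106B and LLGL1 in the lower. CNTNAP2, a neurexin relative that clusters potassium channels on axons, read 9.57, 9.25 and 9.11 in the estrogen arrays, against 7.99, 7.77 and 8.09 in the placebo arrays. With progesterone it read 9.18, 9.31 and 9.41 in the estrogen plus progesterone arrays and 9.29, 8.70 and 8.33 in the progesterone arrays. The groups were apart without progesterone and overlapped through the first progesterone array with it. The main effect was 0.94 ± 0.16 (adjusted p by limma 0.199), and its 3 other probe sets gave 0.98, -0.42 and 0.14.

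TOB2, which slows cell division, differed by 1.87 without progesterone, where the placebo arrays read below the highest control, and by -0.74 with it. Its other probe sets, both brighter, differed by -0.14 and -0.07 without progesterone and by -0.75 and 0.16 with it. LLGL1, a cell polarity protein, differed by -0.70 and 0.56, and neither level overlapped. TMEM171 also turned, with 0.99 and -0.40. For these genes the main effect of 6 arrays against 6 averages opposite differences, as with LLGL1, where it was -0.07.

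The interaction was lowest in p for SFPQ, LLGL1, CCDC181, LPCAT4 and YPEL5 in the direction of a higher difference with progesterone. For a lower one these were TM7SF3, PPM1A, ANKRD11, USP16 and PPP2R2C. SFPQ, a splicing and transcription factor, read 8.41, 8.26 and 8.40 in the estrogen arrays, against 8.98, 9.11 and 9.10 in the placebo arrays. It read 8.59, 9.26 and 8.36 in the estrogen plus progesterone arrays, against 7.79, 7.57 and 7.59 in the progesterone arrays. Estrogen arrays lay below placebo arrays and estrogen plus progesterone arrays above progesterone arrays, without overlap (interaction 1.80, adjusted p by limma 0.241). The other SFPQ probe set, which was brighter, differed by -0.22 without progesterone and -0.004 with it. PPP2R2C, which directs the phosphatase PP2A to its substrates, read 10.44, 10.48 and 10.13 in the progesterone arrays and no more than 7.72 in the other 9. Its 3 other probe sets gave unlike values, with differences of 0.73, -0.16 and -2.02 with progesterone. In 9 of these 10 genes, LLGL1 excepted, the progesterone arrays lay beyond the other 9.

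None of the genes of serotonin synthesis, storage and breakdown passed the test. Of 13 genes on that list 8 were tested; all 8 were higher with estrogen in the mean of both levels, with a median difference of 0.10, against 4905 of 9305 genes higher and a median of 0.01 over all genes tested. At both levels 6 of the 8 had the same sign. TPH2, the brain tryptophan hydroxylase that sets the pace of serotonin production, read 7.22, 7.14 and 7.39 in the estrogen arrays, against 6.47, 7.44 and 7.80 in the placebo arrays. It read 8.85, 8.51 and 7.53 in the estrogen plus progesterone arrays, against 7.74, 6.99 and 4.66 in the progesterone arrays. Both levels overlapped, and the third progesterone array was far below the rest. The difference of 0.92 (exact permutation p = 0.14, two-sided, n = 6 each) consisted of 0.01 without progesterone and 1.83 with it, and was 0.47 without the third progesterone array.

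SLC18A2, the vesicular monoamine transporter, differed by 0.32 without progesterone and 0.39 with it. Its values were 10.22, 10.41 and 10.86 in the estrogen arrays, against 10.12, 10.45 and 9.95 in the placebo arrays. With progesterone they were 10.26, 10.04 and 10.01 in the estrogen plus progesterone arrays, against 10.03, 9.77 and 9.34 in the progesterone arrays. Arrays overlapped at both levels (exact permutation p = 0.045 over 6 against 6, adjusted p by limma 0.652). MAOA, which breaks down serotonin, differed by 0.24, and GCH1, which starts the synthesis of the cofactor of TPH2, by 0.13. The serotonin neuron transcription factors FEV, GATA2 and GATA3 differed by 0.15, 0.05 and 0.07, with -0.02, -0.11 and -0.06 without progesterone and 0.33, 0.20 and 0.19 with it. Other GATA2 probe sets disagreed. One had 0.26 without progesterone and 0.27 with it, all 6 arrays with estrogen above all 6 without, and another had -1.21 and 0.58. The summed linear intensity of the 6 serotonin neuron markers with a probe set was 2830 to 3760 in the estrogen arrays, against 2590 to 3680 in the placebo arrays, and 2600 to 3260 in the estrogen plus progesterone arrays, against 1990 to 2520 in the progesterone arrays.

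Serotonin receptors showed no shared direction, with 2 of 5 tested genes higher and a median of -0.01. HTR7 differed by -0.73, with -0.13 without progesterone and -1.33 with it (adjusted p by limma 0.619). HTR1A lay below the filter on dim probe sets, at a mean of 5.07, and was not tested.

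The CRH system, which carries stress signals to the raphe, had 4 of 5 tested genes higher, with a median of 0.11. CRHR1, a receptor for CRH, read 7.97, 7.94 and 7.92 in the estrogen arrays, against 7.91, 7.53 and 7.89 in the placebo arrays. It read 7.86, 7.47 and 7.84 in the estrogen plus progesterone arrays, against 7.46, 6.15 and 7.24 in the progesterone arrays. The arrays were apart at both levels by narrow margins, and the second progesterone array was far below the rest. The exact permutation p was 0.005, the smallest that 400 arrangements can give, among 18 genes tested this way. Another CRHR1 probe set of like brightness went the other way, by -0.30 without progesterone and -0.38 with it. The main effect of 0.47 was 0.27 without the second progesterone array. The adjusted p by limma over all probe sets was 0.638, and the separation did not hold at both levels under the other scalings. CRHR2, the urocortin receptor, differed by 0.31, of which 0.05 remained without the 3 first arrays apart on the first component and 0.18 without the first estrogen plus progesterone array, UCN by -0.27 and CRH by 0.01.

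**Figure D4:**
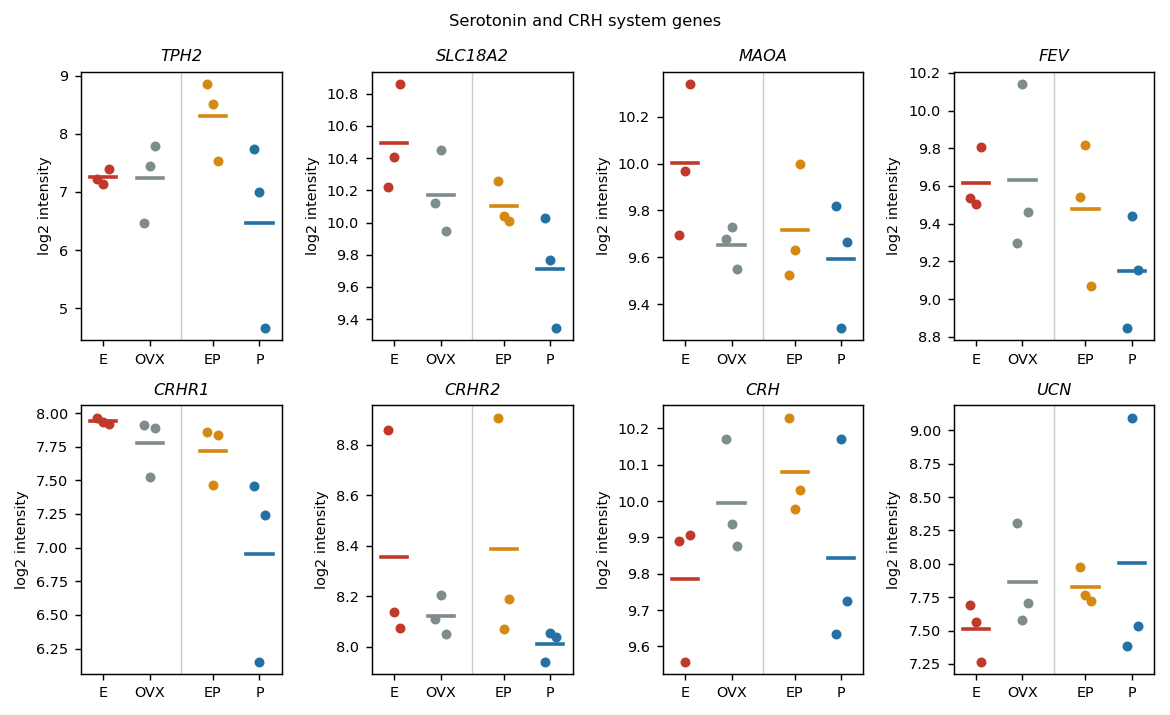
Log2 intensity on each of 12 arrays for 4 serotonin genes (TPH2, SLC18A2, MAOA, FEV) and 4 genes of the CRH system (CRHR1, CRHR2, CRH, UCN), drawn as estrogen (E), placebo (OVX), estrogen plus progesterone (EP) and progesterone (P). Points are single monkeys and bars the means of 3; TPH2 was lowest on 1 progesterone array (4.66).

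Of the steroid receptors, ESR2 differed by 0.17 (exact permutation p = 0.465 over 6 against 6) and the membrane receptor GPER1 by -0.20 (exact permutation p = 0.225). ESR1 and PGR were dim, at means of 4.97 and 2.82, and were not tested, so the classical estrogen induction of PGR could not be examined. PAQR7, a membrane progestin receptor, differed by 0.53, with 0.34 and 0.73 at the levels (adjusted p by limma 0.596). Over all arrays PAQR7 and GPER1 each averaged a log2 intensity of 6.39, below the highest control (6.41). The sizes of their differences are therefore uncertain. Among 25 genes known to respond to estrogen in other tissues 16 were tested, and 5 were higher and 11 lower, with a median of -0.05; 0 passed and 7 had the same sign at both levels. GREB1, an ESR1 target in breast cells, differed by -0.39 without progesterone and 0.20 with it. CARM1, a coactivator that methylates histones, differed by 0.33, with 0.26 and 0.41 at the levels. FKBP4, which assists steroid receptors, differed by 0.24.

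Of 18 genes of synaptic vesicle release 9 were tested. All 9 were higher with estrogen in the mean of both levels, with a median of 0.19, against 4905 of all 9305 genes. Without progesterone 6 were higher, against 4551 of all genes. With it all 9 were, against 5040, but 0 passed. Their summed linear intensity was 13600 to 14100 in the estrogen arrays and 12300 to 13700 in the placebo arrays. It was 13300 to 14000 in the estrogen plus progesterone arrays and 10600 to 12400 in the progesterone arrays. CPLX2, a complexin that clamps vesicle fusion, read 10.84, 10.84 and 10.71 in the estrogen arrays, against 10.64, 10.62 and 10.37 in the placebo arrays. It read 10.47, 10.80 and 10.60 in the estrogen plus progesterone arrays, against 9.79, 9.90 and 9.93 in the progesterone arrays. Both levels were apart (0.25 and 0.75, adjusted p by limma 0.336 for the main effect), and the progesterone arrays lay below all others. STX1A, a t-SNARE, differed by 0.36 and SV2B, a vesicle glycoprotein, by 0.28, with like values at the levels.

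On the synaptic adhesion list 10 of 14 were higher, with a median of 0.16 and with 9 of 14 of the same sign at both levels. Besides LRRTM1 and CNTNAP2, CNTNAP1, an axonal protein of the node of Ranvier region, differed by 1.58 ± 0.62 (SE, adjusted p by limma 0.619). The difference was 0.76 without progesterone, where its arrays overlapped, and 2.41 with it, where they did not. CNTNAP1 averaged a log2 intensity of 6.92 over all arrays, which puts the mean without estrogen below the highest control (6.41). The sizes of its differences are therefore uncertain. Of 6 glutamate receptors 5 were higher, with GRIN1, the obligate NMDA receptor subunit, at 1.40. GRIN1 read 8.17, 8.47 and 7.85 in the estrogen arrays, against 5.27, 8.44 and 8.62 in the placebo arrays. It read 8.16, 8.43 and 8.62 in the estrogen plus progesterone arrays, against 7.54, 6.61 and 4.81 in the progesterone arrays. The values overlapped without progesterone and were apart with it. Of 8 GABA-A and glycine receptors 6 were higher without progesterone and 1 with it, against 4551 and 5040 of all 9305 genes. Single arrays weighed on this. Their summed linear intensity was 2600 on the first placebo array, against 3780 and 4100 on the other placebo arrays. It was 4590 on the first progesterone array, against 3230 and 3550 on the others. The list's median over both levels was 0.08, and -0.05 without the first placebo array.

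Several lists of other kinds lay near the background. Oxidative phosphorylation (17 genes), the proteasome (17), chaperones (15), cholesterol synthesis (11) and MHC class I (12) had medians of -0.01, 0.04, -0.01, 0.06 and -0.04, and 0 of their genes reached even an unadjusted main-effect p of 0.05, against 7.11% of all genes. Of 13 sirtuins and histone deacetylases 9 were lower, with a median of -0.16, against 4400 of 9305 genes lower and a median of 0.01 over all genes. Among the genes of branched-chain amino acid breakdown 8 of 14 were higher. PPM1K, the mitochondrial phosphatase that activates that pathway, differed by 0.90 on its brightest probe set, with 0.67 and 1.14 at the levels. CARTPT, which encodes the CART peptide, had the largest difference of 3 tested neuropeptides, all of them lower. It read 8.31, 7.93 and 8.46 in the estrogen arrays, against 11.15, 8.74 and 9.57 in the placebo arrays. It read 9.83, 8.92 and 8.88 in the estrogen plus progesterone arrays, against 9.72, 12.05 and 9.04 in the progesterone arrays. Groups were apart without progesterone and overlapped with it (adjusted p by limma 0.615).

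**Figure D5:**
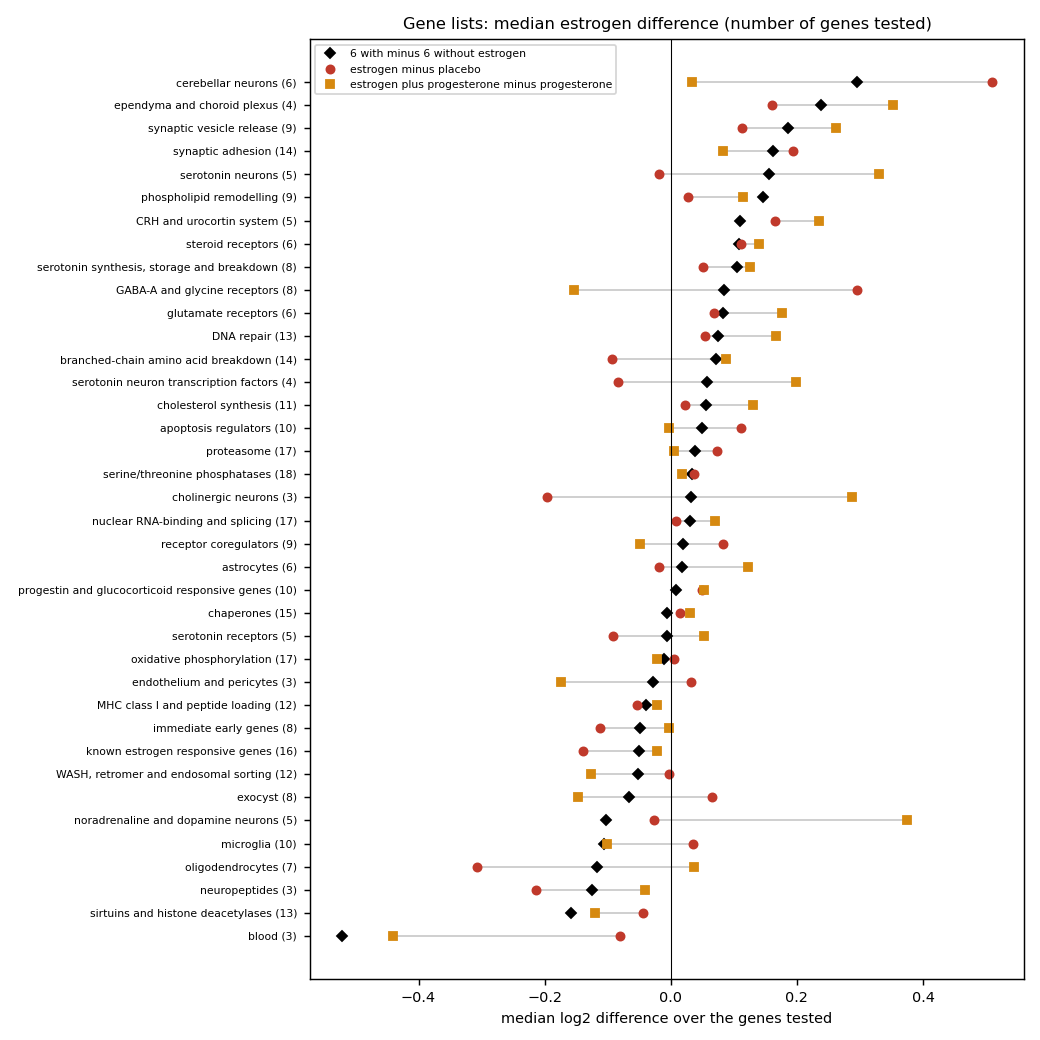
Median log2 difference over the genes tested in each list with at least 3, for 6 arrays with estrogen minus 6 without (black diamonds), estrogen minus placebo (red circles) and estrogen plus progesterone minus progesterone (orange squares). The vertical line marks 0; synaptic vesicle release had a median of 0.19 and oligodendrocyte markers one of -0.12 over both levels.

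Markers of cell types were read on the same scale. All 7 oligodendrocyte markers tested were lower with estrogen, with a median of -0.12. That came from the level without progesterone, where 6 were lower and the median was -0.31; with progesterone 5 were higher and the median was 0.04. The defining myelin gene MBP differed by less than 0.01 in size. Under median alignment the list's median was -0.01. Cerebellar markers, for tissue next to the block, were higher in 5 of 6, with a median of 0.29. Without progesterone 5 of 6 were higher with a median of 0.51, and with it 3 of 6 with a median of 0.03. The overall median was 0.12 without the second estrogen array, on which CBLN1 read 9.11, against 7.30 and 7.65 on the other estrogen arrays. Their summed intensity was 1790 to 3920 in the estrogen arrays, against 1850 to 2130 in the placebo arrays, and 1770 to 2970 in the estrogen plus progesterone arrays, against 2160 to 2440 in the progesterone arrays. Of 10 microglial markers 6 were lower, with a median of -0.11 and a range of -0.67 (P2RY12, a purine receptor) to 0.21 (C1QC, of complement). Without progesterone 6 were higher, with a median of 0.04, and with it 7 were lower, with a median of -0.10. The part of these marker differences in the gene differences above was not tested.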

How the data were processed

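The deposited table holds intensity on a linear scale, 1 value per probe set and array, and the authors had brought all arrays to a common level, with a trimmed mean (2% off each end) of 200.0. Which software they used is not stated in the labels or headers. Of 52865 probe sets, 99 controls were removed. Values were set to a floor of 4.985 (the 5th percentile), converted to log2 and quantile normalized, since array medians differed by more than 0.15 on the log2 scale. The 26383 probe sets with a mean at or above the median of means (log2 6.31) were tested. Gene symbols came from the platform table: 15020 of those tested had 1 symbol, 224 several, 10221 none and 918 a locus number; only the first kind was named, covering 9305 genes.

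Groups came from the labels. limma 3.58.1 (lmFit and eBayes, R 4.3.3) fitted 1 mean per group over 12 arrays, with two-sided p-values adjusted by Benjamini-Hochberg over all 26383 and called under 0.05. The estrogen main effect was the mean of both within-level differences. "Not overlapping" means that all 3 arrays of one group lay beyond all 3 of the other, as a description with no test. Exact permutation tests exchanged estrogen labels within progesterone levels (400 arrangements). Lists used the brightest probe set of each gene. Genes named were those of lowest p for the main effect (12 in each direction), the level differences and the interaction, those not overlapping at both levels with the largest smaller difference (10 in each direction), a set list of serotonin, steroid and stress genes, and up to 3 members of each list of lowest p; CNTNAP1, GRIN1 and MBP among others were also chosen from the lists after their values were seen. The members, lists and tests were chosen with earlier results of these data known. Arrays give no read depth, so their number limits the precision. Plots used Python 3.11.15 with matplotlib 3.10.9. The fit was tested on simulated data.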

Additional observations from a re-analysis of the deposited data

Results flagged for a closer look

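Among 136 groups of 6 arrays, with or without estrogen, 8 held an array farther from the others than Dixon's 95% criterion allows; chance gives about 1 in 20. SIRT6 read 7.33 on the third placebo array, against 5.17 to 5.92 on the other 5 without estrogen. SLC2A5 read 7.32 on the second estrogen plus progesterone array, against 6.53 to 6.82 on the other 5 with estrogen. SFPQ read 9.26 on that same array, against 8.26 to 8.59. CRHR1 read 7.47 on it, below 7.84 to 7.97. FBLN7 read 5.33 on the first estrogen array, below 6.78 to 7.15. GATA2 read 6.71 on the third progesterone array, below 7.37 to 7.70. The actin 3′ minus 5′ signal was 0.90 on the third estrogen array, above 0.48 to 0.63. The median intensity before normalization was 98.6 on the third progesterone array, above 78.9 to 85.9 on the other 5 without estrogen.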

How the results depend on the processing

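Across 1469 values of 64 single genes under other settings, 1429 kept their direction and side of the threshold, 5 came to pass and 35 reversed, all of these in 9 genes. The main-effect count of 0 stood in all settings but array weights (6). Leaving out each array gave 0 to 1 (1 without placebo replicate 3 and without progesterone replicate 1). For estrogen against placebo the count was 1 with no filter and otherwise 0; leaving out each array gave 0 to 1. For estrogen plus progesterone against progesterone it was 4 with a filter at the 75th percentile, 7 with the 6 arrays of that level alone, 44 with array weights, 42 with a trended robust prior and 0 on the brightest probe sets; leaving out each array gave 0 to 42. The interaction count was 0 to 4. Probe sets not overlapping at both levels in the same direction numbered 310 of 52766 with no filter and 110 with that at the 75th percentile. They numbered 69 of 9305 on the brightest probe sets, and 1619 of 26383 with the 3 first arrays apart on the first component left out. In opposite directions these settings gave 258, 105, 67 and 1197, in that order. Leaving out each array gave 269 to 584 in the same direction, higher because fewer arrays have to be apart. Without the first estrogen array 384 held in the same direction and 549 in opposite directions. The correlation between levels was 0.0775 without those 3 arrays, and -0.0507 to 0.0781 leaving out each array. Replicate numbers were not taken to pair animals, since same-numbered deviations correlated by 0.02 to 0.28 without progesterone and by -0.26 to -0.08 with it. These correlations did not compare estrogen with estrogen plus progesterone arrays, whose first arrays lay at -44.9 and -44.0 on the first component. Whether arrays of the same number share a batch was not settled by them. A replicate block gave 19 calls with progesterone, 16 of them shared with the 22, and 0 for the main effect. Values near 0 reversed: BDNF 0.00187 under median alignment, 0.062 with array weights and 0.10 without the 3 arrays (-0.15 to 0.11 leaving out each array), HTR2A 0.17 with array weights and 0.33 without the 3 arrays (-0.16 to 0.16), and CRH -0.034 and -0.0072 (-0.039 to 0.095). Leaving out each array gave GATA2 -0.10 to 0.14, HTR1B -0.033 to 0.18, NRIP1 -0.047 to 0.14, GREB1 -0.17 to 0.016, UCN -0.42 to 0.0051 and LLGL1 -0.13 to 0.0058. The cause was not tested.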

Other observations

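Gene groups not described above were read in the same way, and no member reached an adjusted p by limma of 0.05 for the main effect of estrogen. Of 8 immediate early genes, which respond within minutes to neuronal activity, 4 were higher and 4 lower, with NR4A1 at -0.48, DUSP1 at -0.31 and JUND at 0.52, and 7 of the 8 had the same sign at both progesterone levels. Of 9 genes of phospholipid remodelling 5 were higher and 4 lower. LPCAT2, an acyltransferase found in macrophages and microglia, differed by -0.62 without progesterone and -0.55 with it, and its arrays overlapped at both levels. Its relative LPCAT4 differed by 0.05 without progesterone and 1.19 with it. Of 10 apoptosis regulators 6 were higher; BAX, which permeabilises mitochondria, differed by 0.60, with 0.39 and 0.80 at the levels. Of 13 DNA repair genes 9 were higher, with a median of 0.07. Of 5 noradrenaline and dopamine neuron markers 2 were higher and 3 lower, with a median of -0.10. The largest difference was that of DBH, the enzyme that makes noradrenaline, at 0.90 (adjusted p by limma 0.691). DBH differed by 1.02 without progesterone and 0.78 with it, and its arrays overlapped at both levels. SLC6A3 differed by -0.40 and TH by 0.19.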
